A study of Papio hamadryas with 17 samples.

Results

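The organic anion and cation drug transporters of the kidney were followed as 9 genes named by symbol: SLC22A6, SLC22A8, SLC22A7, SLC22A2 and SLCO4C1 on the uptake side, and SLC47A1, ABCC2, ABCC4 and ABCB1 on the efflux side. They were chosen for their known role, not by their values, and every transcript carrying 1 of these symbols was included. Of the 9 genes, 8 lay in both deposited tables, among 9826 genes found there, and SLC22A7 was found in the female table but not in the male transcripts analysed here. All 8 passed the filter on low values described with the processing, so no gene was lost to it.

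These proteins clear drugs, toxins and waste products from blood into urine, mostly in the proximal tubule. Carriers of the basolateral membrane, which faces the blood, bring organic anions or cations into the tubule cell, and pumps and exchangers of the apical brush border then pass them into the urine. Uptake of organic anions by SLC22A6 and SLC22A8 runs against an outward flow of dicarboxylates that is kept up by the sodium gradient, whereas the ABC pumps burn ATP. In rodent kidney several of these carriers are known to differ between males and females.

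RNA was sequenced from kidney cortex biopsies of baboons (Papio hamadryas), 8 females and 9 males, with 1 library per animal, each made with a stranded mRNA kit. None of the animals was treated, and all had eaten a low-salt chow throughout life. Biopsies were guided by ultrasound and put into liquid nitrogen. Females were aged 15 to 19 and males 6 to 13 on the scale of the labels, which state no unit, and the sexes also belonged to different series of library names. Sex, age range and library series therefore cannot be told apart in any comparison between the sexes below.

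Libraries that stood apart were set aside first. Female 1, female 2 and male 6 carried skeletal muscle RNA: the summed signal of 2 skeletal muscle genes was 54348 to 111219 there and 0.955 to 21.9 in the other 14 libraries. The main comparisons used those 14 libraries, from 6 females and 8 males, and results with all 17 are given where they differ. No source used here gives how the deposited values were scaled between libraries. Signal is the deposited read abundance of a gene after removal of an offset of 1. Over transcripts found in both tables it summed to 259197 to 440508 in the 14 libraries. Depth could be ranked only by the step between low values, which differed 5.99-fold and was coarsest in female 6. Among the 14, markers of kidney cells were present throughout, but female 3 was low in proximal tubule genes: the mean log2 level of 15 such genes was 3.07 there, against 5.75 to 7.05 in the other 5 females and 7.01 to 8.35 in males. Thick limb genes in female 3 had the highest summed signal of the 14 libraries, at 11548. In bulk tissue, fewer cells of a type and less RNA per cell cannot be told apart.

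Transporter genes were lower in females than in males. Of the 8 genes in both tables, 7 passed the test between the sexes, all 7 lower in females, and ABCB1 did not pass. Over all 9539 genes tested, 36.1% were called higher in males and 2.22% higher in females, so the comparison as a whole leaned the same way. The median difference between females and males was -1.47 on the log2 scale for the 8 transporters and -0.35 for all genes tested. When libraries were rescaled to a common median, the median of all genes became 0.03, 14.9% of genes were called higher in males and 14.5% higher in females, and 5 of the 8 transporters stayed past the threshold. Direction did not change for any of the 8 under that rescaling. Without female 3, all 8 passed, beside 39.1% of all genes higher in males and 2.09% higher in females.

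**Figure D1:**
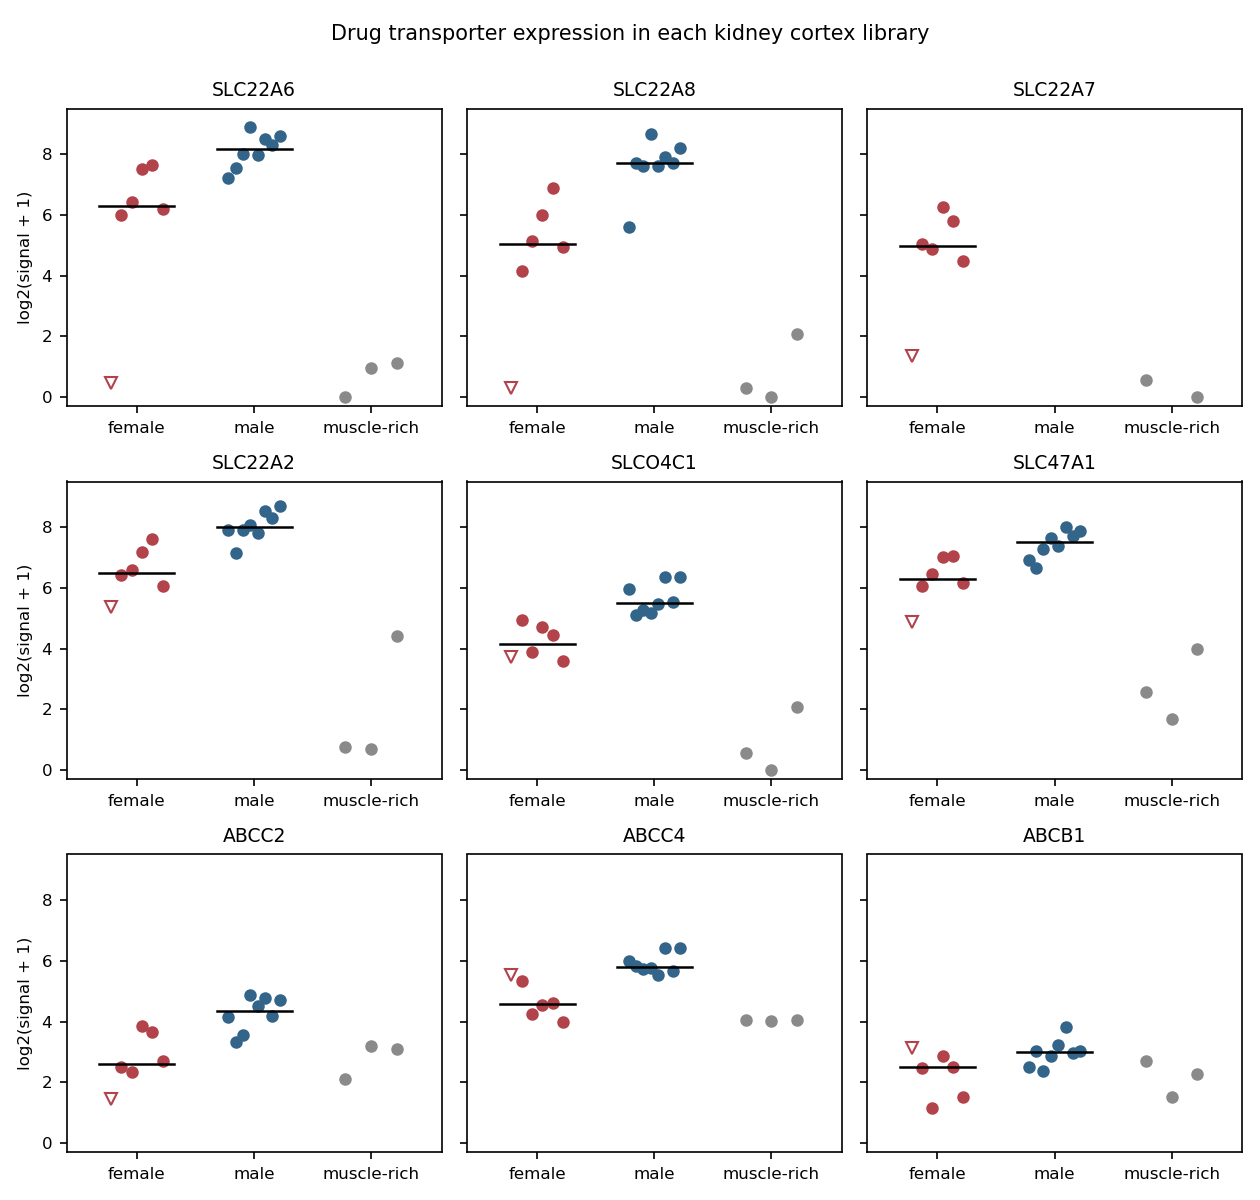
Each point is the log2(signal + 1) value of 1 library, for 6 females, 8 males and the muscle-rich libraries (female 1, female 2 and male 6), with black bars at the medians of the females and of the males; the open triangle is female 3. With the muscle-rich libraries apart, every male lies above every female for SLCO4C1 and ABCC4, and SLC22A7 has no male values. Among the 6 females the open triangle is lowest for SLC22A6, SLC22A8, SLC22A7, SLC22A2, SLC47A1 and ABCC2. It is highest among them for ABCC4 and ABCB1.

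SLC22A6 encodes OAT1, the carrier that takes up para-aminohippurate and many acidic drugs. Gene SLC22A6 lies on sequence NC_018165.2 from 10776365 to 10784198 on the plus strand, and 1 transcript represented it. Signal of SLC22A6 in females was 0.394 at the lowest, 78.5 at the median and 197 at the highest, and in males 149, 285 and 474. The low value was that of female 3, 2 of the 6 females lay above the lowest male, and 6 of the 8 males lay above every female. The difference was -2.42 ± 0.82 (SE; limma, adjusted p = 0.0284). Without female 3 it was -1.38 ± 0.32 (adjusted p = 0.00308), so 1 library moved the size but not the direction. Median scaling ended the call (-1.98, adjusted p = 0.0991).

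SLC22A8 encodes OAT3, which handles bulkier anions and some cations. It is the direct neighbour of SLC22A6, from 10745444 to 10772203 on the same sequence and strand, with 4161 bases between the 2 genes. Female values of SLC22A8 were 0.225, 32.1 and 117 (lowest, median, highest), and male values 47.5, 208 and 403. Again female 3 was lowest, and male 1, the lowest male, was the single male below the highest female. SLC22A8 showed the largest difference among the transporters, -3.06 ± 0.76 (SE, adjusted p = 0.00512), and kept its call with median scaling (-2.62, adjusted p = 0.0250) and with all 17 libraries (-3.54, adjusted p = 0.0374). With all 17 libraries 3 of the 8 transporters were called, SLC22A8, ABCC2 and ABCC4, beside 13.2% of all genes higher in males and 0.372% higher in females.

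SLC22A7 encodes OAT2, an anion carrier that the liver also expresses. It lies on sequence NC_018155.2 from 42815796 to 42823174 on the plus strand and had 2 transcripts. In the 6 females signal was 1.57, 30.2 and 75.1 (lowest, median, highest), with a mean of 35.6 ± 26.0 (SD). Female 3 was lowest and female 6 highest. The liver genes ALB and SERPINA1, which were the 2 of their list in both tables, summed to 2.16 to 105 in females and 19.2 to 151 in males, and their part in the values of SLC22A7 was not tested. Male values of SLC22A7 were not analysed here.

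SLC22A2 encodes OCT2, the basolateral uptake route for organic cations such as metformin and creatinine. It lies on sequence NC_018155.2 from 156254659 to 156297760 on the minus strand. Female signal was 40.1, 89.3 and 196, and male signal 141, 253 and 410 (lowest, median, highest). In this gene 7 of the 8 males exceeded every female, and female 3 was the lowest library without falling far from the others. The difference was -1.51 ± 0.31 (SE, adjusted p = 0.00132), and it remained past the threshold with median scaling (-1.06, adjusted p = 0.0171) but not with all 17 libraries (-2.56, adjusted p = 0.0763).

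SLCO4C1 encodes OATP4C1, a basolateral carrier of digoxin, thyroid hormone and uraemic toxins. The gene spans 96538850 to 96605097 on the minus strand of sequence NC_018157.2. Female values were 11.2, 17.3 and 30.1 and male values 33.7, 44 and 81.0 (lowest, median, highest), without overlap between the sexes. Such a separation, with every male above every female, was found for 11.9% of all genes tested (the opposite one for 0.314%) and for 2 of the 8 transporters, the other being ABCC4. SLCO4C1 had the smallest adjusted p of the transporters, with a difference of -1.43 ± 0.26 (SE, adjusted p = 0.000606). With median scaling the difference was -0.99 (adjusted p = 0.00590).

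On the apical side, SLC47A1 encodes MATE1, which passes organic cations into the urine in exchange for protons. SLC47A1 lies on sequence NC_018167.2 from 18798961 to 18844862 on the plus strand, with 4 transcripts that share the same ends. Female values were 28.4, 78.4 and 131 and male values 99.2, 184 and 257 (lowest, median, highest). Female 3 was lowest, and 2 of the 6 females lay above the lowest male. The difference of -1.16 ± 0.30 (SE, adjusted p = 0.00697) was lost with median scaling (-0.71, adjusted p = 0.10) and with males of library series A alone (-0.91, adjusted p = 0.0800).

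ABCC2 encodes MRP2, a pump for conjugated anions. ABCC2 lies on sequence NC_018160.2 from 91980917 to 92043616 on the plus strand. Female signal was 1.74, 5.15 and 13.4 and male signal 8.98, 19.6 and 28.3 (lowest, median, highest), so that 2 of the 6 females reached into the male range. The difference of -1.51 ± 0.34 (SE, adjusted p = 0.00301) kept its call with median scaling (-1.10, adjusted p = 0.0289) and with all 17 libraries (-1.40, adjusted p = 0.0140).

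ABCC4 encodes MRP4, a pump for cyclic nucleotides, urate and many antiviral drugs, found well beyond the proximal tubule. ABCC4 covers 72809973 to 73101650 on the minus strand of sequence NC_018168.2. Female values of 14.9, 22.9 and 44.9 lay below all male values of 45.4, 54.4 and 85.4 (lowest, median, highest). Here female 3 was the highest female and came close to the lowest male. The difference was -1.22 ± 0.23 (SE, adjusted p = 0.000810), with median scaling -0.78 (adjusted p = 0.00652) and with all 17 libraries -1.17 (adjusted p = 0.0197).

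ABCB1 encodes P-glycoprotein, the pump for large hydrophobic drugs, which endothelium also carries. ABCB1 lies on sequence NC_018154.2 from 114947191 to 115055094 on the plus strand. Female values were 1.24, 4.68 and 7.69 and male values 4.16, 6.99 and 13.2 (lowest, median, highest). The ranges overlapped widely: 4 of the 6 females lay above the lowest male. Its difference of -0.70 ± 0.30 (SE) missed the threshold (adjusted p = 0.0744) over 14 libraries and passed it without female 3 (-0.87, adjusted p = 0.0262) or without female 6 (-0.82, adjusted p = 0.0494). Without female 5 it was -0.48 (adjusted p = 0.193) and without female 8 -0.55 (adjusted p = 0.177).

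Within each male library series the direction was lower in females for all 8 genes. With the 5 males of series A, 5 of 8 transporters were called lower in females, beside 19.7% of all genes (0.671% were higher in females), and with the 3 males of series B among the 14, 6 of 8 beside 30.6% (1.26% higher in females). Males of series A were themselves below those of series B for every transporter, by -0.74 to -0.40, with adjusted p-values of 0.620 or above. At an unadjusted p under 0.05, 3 of the 8 (SLC22A2, SLC47A1 and SLCO4C1) and 7.24% of all genes differed between the series, and limma called 0 genes after adjustment. No transporter was called for age inside a sex after adjustment (limma, smallest adjusted p of 0.999 in females and 0.999 in males), and no gene of the whole table was. At an unadjusted p under 0.05, 2.22% of genes in females and 1.83% in males had a slope, 212 and 175 genes, among them ABCC4 in females at 0.32 ± 0.13 (SE) per unit of age. Male 5 was aged 13 and the other 7 males 6 to 8, so the slopes in males leaned on 1 animal. Without male 5 the slopes of the transporters ran from -0.58 (SLC22A2) to 0.07 (ABCC4) per unit of age (limma, smallest adjusted p = 0.977). An absence of change with age cannot be read from ranges this narrow. With age as a covariate 0 of the 8 transporters passed the test by limma, as against 0 genes higher in males and 1 higher in females (0.0105%) over the whole table, and unadjusted p-values of the transporters ranged down to 0.0608 for ABCC4.

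In the muscle-rich libraries the uptake genes and SLC47A1 were low, while ABCC4 and ABCB1 lay within the range of the other females. SLC22A6 signal was 0.00 in female 1, 0.947 in female 2 and 1.17 in male 6, where 3 steps of the scale, the limit that a count of 0 allows, stand at 0.710, 0.947 and 0.881. SLC22A2 was 0.710, 0.631 and 20.3 in the same libraries, and SLCO4C1 was 0.473, 0.00 and 3.23. SLC47A1 was 4.97, 2.21 and 15.0, below its lowest value elsewhere of 28.4. ABCC2 was 3.31, 8.20 and 7.63. ABCC4 measured 15.7, 15.4 and 15.5, and ABCB1 measured 5.55, 1.88 and 3.86. The proximal tubule list summed to 36.8, 30.3 and 251 in these libraries, with 2, 3 and 0 of its 15 genes at 0.

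**Figure D2:**
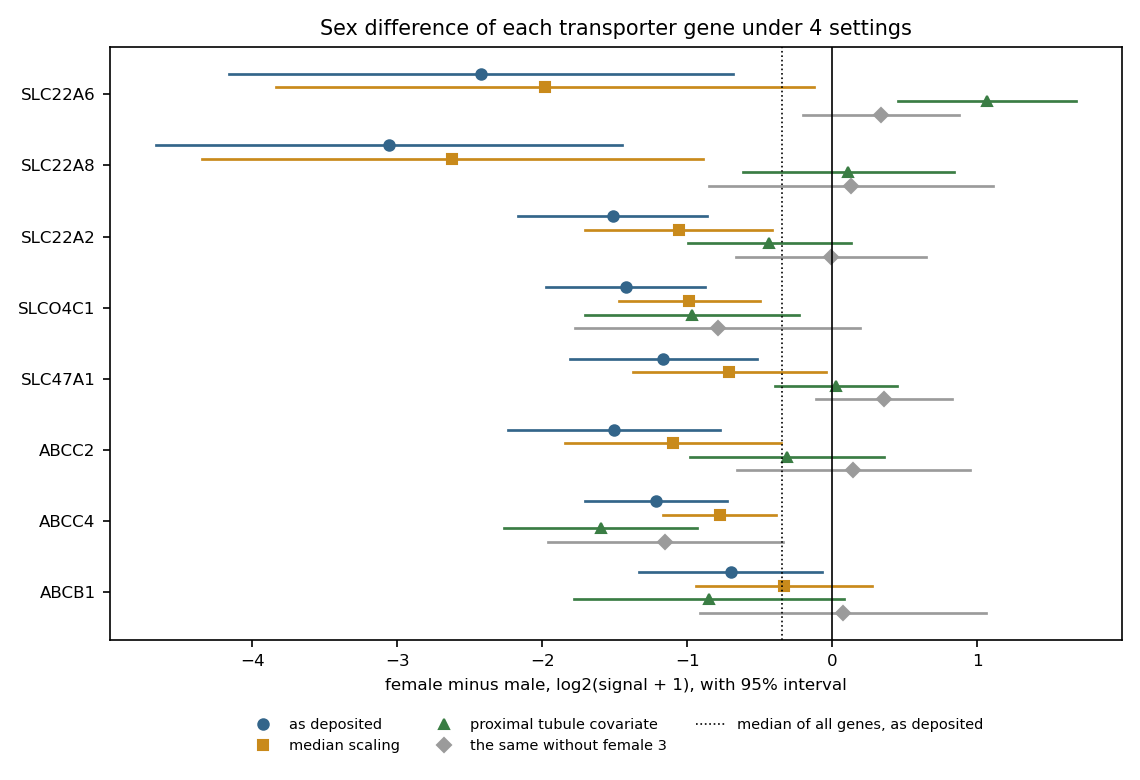
Points give the female minus male difference of each transporter in log2(signal + 1), with 95% intervals from limma, for the values as deposited, after median scaling, with the proximal tubule level as a covariate, and with that covariate but without female 3; the dotted line marks the median of all genes as deposited, -0.35. Differences as deposited are all below 0, those with the covariate lie on both sides of 0, and SLC22A6 with the covariate sits at 1.07.

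Most of the transporters followed the level of the proximal tubule genes from library to library. Over the 14 libraries, Pearson r of log2 signal with the mean level of 15 proximal tubule markers, none of them a transporter of the set, was 0.98 for SLC22A8, 0.97 for SLC22A6, 0.97 for SLC47A1, 0.93 for SLC22A2, 0.92 for ABCC2 and 0.77 for SLCO4C1, each with an adjusted p at or under 0.000387 in a permutation test over 8 genes. The smallest p that the permutations can give is 1e-05. ABCC4 (r = 0.44, adjusted p = 0.128) and ABCB1 (r = 0.32, adjusted p = 0.260) did not pass in the same permutation test. The proximal tubule relation by Spearman rho was 0.96 for SLC22A6, 0.94 for SLC22A8, 0.94 for SLC47A1, 0.89 for SLC22A2, 0.88 for ABCC2, 0.80 for SLCO4C1, 0.73 for ABCC4 and 0.49 for ABCB1. For comparison, the median r of all genes tested was 0.26, and 3.17% of them had an r over 0.9.

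Without female 3, r over 13 libraries was 0.78 for ABCC4 and 0.77 for ABCB1, and both passed. These were still the lowest of the 8, next to SLCO4C1 at 0.78, while the other 5 genes lay between 0.91 and 0.97. Without the libraries farthest from the median, female 3 and female 4, r was 0.89 for ABCC4 and 0.85 for ABCB1, and r lay between 0.87 and 0.96 for the other 6 genes. Within the 8 males, r was 0.89 for SLC47A1 and 0.87 for SLC22A6, both with an adjusted p of 0.0225, and 0.76 for SLC22A8 (adjusted p = 0.0403, all 3 by exact permutation test), and none passed by rho. The other 5 genes did not pass within males, with r from 0.43 to 0.70. Within the 6 females, SLC22A6, SLC22A8 and SLC47A1 each had an r of 0.98 or above and ranked the libraries in the same order as the proximal tubule level (rho = 1.0, adjusted p = 0.00741, exact permutation test). SLCO4C1 (r = 0.49), ABCC4 (r = -0.63) and ABCB1 (r = -0.32) did not pass there, with female 3 among the 6.

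**Figure D3:**
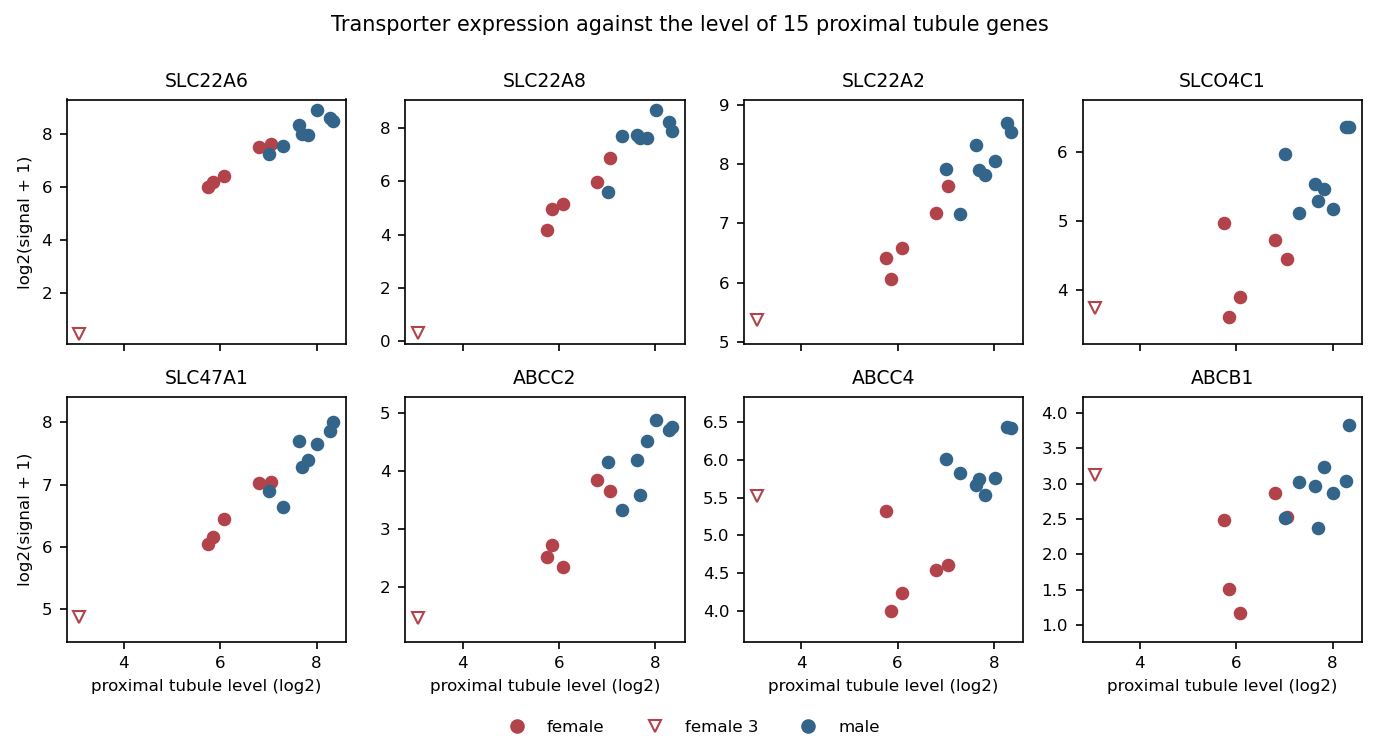
Each panel sets log2(signal + 1) of 1 transporter on the vertical axis against the mean log2 level of 15 proximal tubule genes on the horizontal axis, over 6 females (red, female 3 as an open triangle) and 8 males (blue). SLC22A6, SLC22A8 and SLC47A1 rise along the whole range, whereas female 3 lies far above the line of the other libraries for ABCC4 and ABCB1.

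Of the 15 proximal tubule genes, 12 were called lower in females, beside 36.1% of all genes called higher in males. With median scaling 7 were, beside 14.9%, and with all 17 libraries 5 were, beside 13.2%. The proximal tubule level itself differed between the sexes, 5.77 ± 1.42 (SD) over 6 females against 7.76 ± 0.458 (SD) over 8 males. With this level as a covariate in the fit, 2 of the 8 transporters were called: ABCC4 lower in females (-1.60 ± 0.32 SE, adjusted p = 0.00486) and SLC22A6 higher in females (1.07 ± 0.29 SE, adjusted p = 0.0181), beside 22.1% of all genes called higher in males and 1.43% higher in females. SLCO4C1 was at -0.97 (adjusted p = 0.0533), SLC22A2 at -0.43, ABCC2 at -0.32, SLC22A8 at 0.11 and SLC47A1 at 0.03. That result rested on female 3: without it, 0 of the 8 were called by limma, only 4 genes of the whole table were (0.021% in each direction), ABCC4 stood at -1.15 (adjusted p = 0.157) and SLC22A6 at 0.34 (adjusted p = 0.509).

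Female 3 separated the transporters from each other. SLC22A6 there was 0.464% and SLC22A8 0.651% of the median of the other 5 females, while SLC22A2 was 42.4%, SLCO4C1 59.6%, SLC47A1 32.9% and ABCC2 31.4%. SLC22A7 was at 4.95%, and ABCC4 (202%) and ABCB1 (167%) were above the other females. This was no shallow library: its step was 0.0562, near the finest of the 14 (0.0531), so that the signal of SLC22A6 amounted to 7 steps and that of SLC22A8 to 4. Of 3441 genes with a median of at least 10 in the other females, 16 (0.465%) were under 1% of that median in female 3, and the median gene was at 117%. Proximal tubule markers ranged from 0.00% to 40.2% of the median, with SLC5A2, the glucose carrier of the early proximal tubule, at 0 and SLC4A4, the basolateral bicarbonate carrier, at 40.2%. Thick limb markers were at 169% to 273%, and UMOD, which encodes uromodulin of the thick limb, was at 264%.

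Ratios of carriers within a library were taken on signal + 1, so low values pull them towards 0, and 5 pairs that share substrates or follow each other along the route were compared between the sexes. The log2 ratio of SLC22A2 to SLC47A1, uptake and exit of organic cations, ranged from -0.10 to 0.58 in females (mean 0.27 ± 0.25 SD, n = 6) and from 0.40 to 1.02 in males (0.61 ± 0.21 SD, n = 8), a difference of -0.35 with an overlap of the ranges (exact permutation test, two-sided, p = 0.0143, adjusted over the 5 ratios p = 0.0716). Without female 3 the adjusted p of this ratio was 0.0408 and without female 7 it was 0.0272, while the other 12 leave-outs did not pass, with adjusted p up to 0.145 (exact permutation tests). With all 17 libraries it was 0.00967 (exact permutation test), with the muscle-rich female 1 at -1.80 and female 2 at -0.98, where SLC22A2 was at or below the limit that a count of 0 allows. The log2 ratio of SLC22A6 to SLC22A8 was 1.13 ± 0.59 (SD) over the 6 females and 0.50 ± 0.51 (SD) over the 8 males (exact permutation p = 0.0546, adjusted p = 0.0910), and without female 3 the difference rose from 0.63 to 0.82 (exact permutation test, adjusted p = 0.0408). SLCO4C1 to ABCB1 differed by -0.73 (exact permutation p = 0.0400, adjusted p = 0.0910), and by -0.60 with a pseudocount of 0.1 (exact permutation, adjusted p = 0.240).

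For the anion route, the SLC22A6 to ABCC2 ratio differed by -0.91 (exact permutation p = 0.152, adjusted p = 0.190) and the SLC22A6 to ABCC4 ratio by -1.20 (exact permutation p = 0.339, adjusted p = 0.339). Without female 3 those differences were -0.13 and 0.0037, so none of the 5 ratios passed over the 14 libraries and those 2 lost their size with 1 library. Within males of series A alone and of series B alone the SLC22A2 to SLC47A1 difference was -0.33 and -0.39. Summed over genes, uptake (SLC22A6, SLC22A8, SLC22A2 and SLCO4C1) was 0.641 to 3.11 times efflux in females and 2.45 to 4.08 times in males, as a description only. The lowest quotient was that of female 3, and the next lowest, in female 4, was 1.70. The size of this quotient also carries the lengths of the genes, so it can be read between libraries and not as more uptake than efflux RNA.

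**Figure D4:**
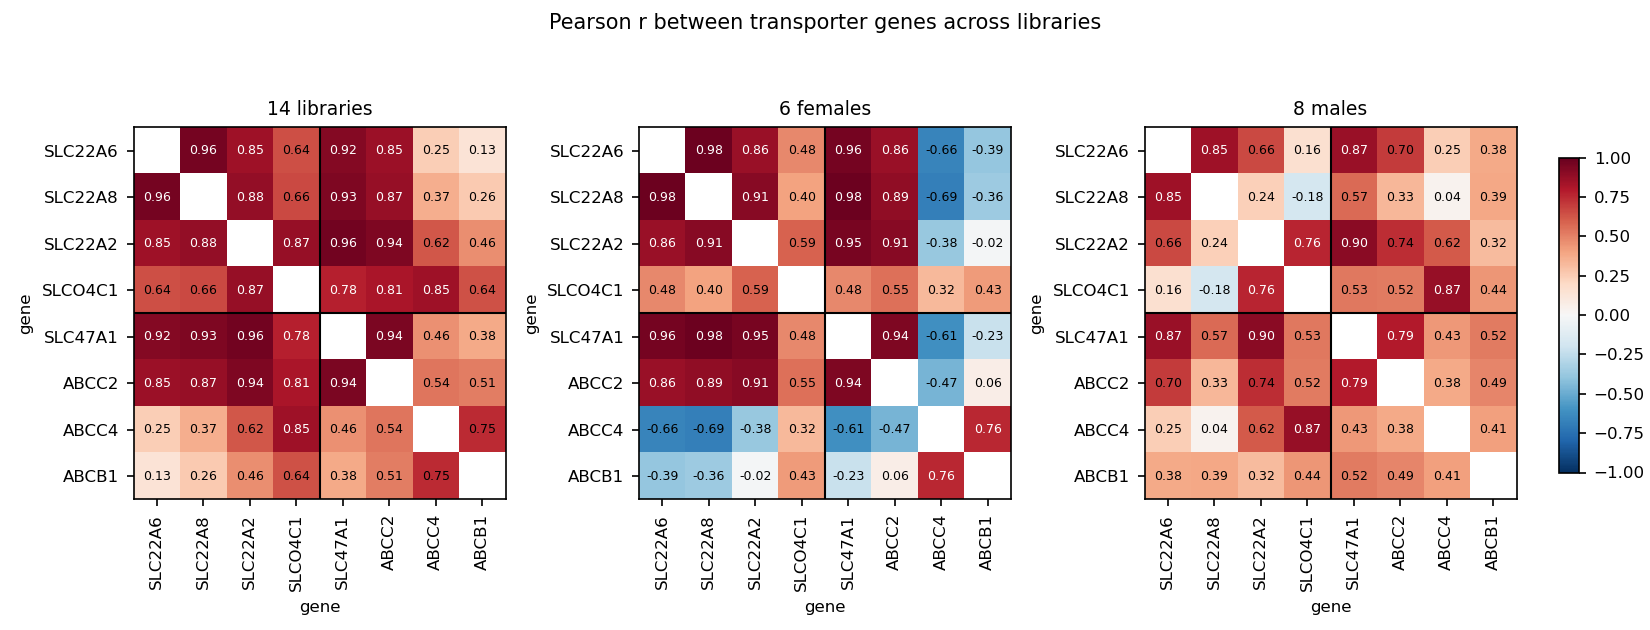
Coloured squares give Pearson r of log2(signal + 1) between pairs of the 8 transporters over 14 libraries, over the 6 females and over the 8 males; black lines divide uptake genes (first 4) from efflux genes (last 4). All values are above 0 over the 14 libraries, and the rows of ABCC4 and ABCB1 turn negative against SLC22A6, SLC22A8 and SLC47A1 within females. Those negative values include female 3, which is the lowest female for SLC22A6, SLC22A8 and SLC47A1 and the highest for ABCC4 and ABCB1.

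Uptake and efflux genes rose and fell together across the pooled libraries, and fewer pairs passed inside a sex, where there were fewer libraries. All 28 pairs had a positive r over the 14 libraries, where 68.2% of all gene pairs were positive. Of the 28, 19 passed a permutation test adjusted over the 28 by r (21 by Spearman rho). The share of all gene pairs that would pass was not computed. Of the 16 pairs of an uptake with an efflux gene, 11 passed, with r from 0.13 to 0.96 and a median of 0.80, whereas the median r over all pairs of genes tested was 0.22. The library sum, the sex and the proximal tubule level are shared by all points of these correlations. Within the 8 males 2 pairs passed by r and 0 by rho, and within the 6 females 9 passed by r and 3 by rho. These counts rest on fewer libraries than the 14. The median r of the 16 uptake and efflux pairs was 0.53 within males (from 0.04 to 0.90) and 0.45 within females (from -0.69 to 0.98). Over all gene pairs it was 0.149 and 0.155. Of the 28 values of r, 27 were positive in males and 19 in females, where 62.1% and 59.1% of all gene pairs were. Without female 3 all 28 pairs passed over the remaining 13 libraries. With median scaling of the 14 libraries 16 pairs passed by r and 14 by rho (permutation tests). Of the 28 values of r, 27 were then positive, with a lowest of -0.056, and 9 of the 16 uptake and efflux pairs passed by r.

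The cation pair SLC22A2 and SLC47A1 had the highest r, 0.96 (rho = 0.94, adjusted p = 4e-05 and 9.3e-05, permutation test), which was 0.94 without female 3 and female 8, 0.95 within females (adjusted p = 0.0292) and 0.90 within males (adjusted p = 0.0211, exact permutation tests). SLC22A6 and SLC22A8, the adjacent anion carriers, had an r of 0.96 (rho = 0.97, adjusted p = 4e-05 and 9.3e-05, permutation test), 0.94 without female 3 and female 4, 0.98 within females (adjusted p = 0.0130) and 0.85 within males (adjusted p = 0.0201, exact permutation tests). SLC22A6 and ABCC2 reached 0.85 overall (rho = 0.88), 0.86 within females and 0.70 within males, the last without passing (adjusted p = 0.201, exact permutation test). SLC22A6 and ABCC4 did not pass by r over the 14 (r = 0.25, adjusted p = 0.430, and rho = 0.64, adjusted p = 0.0234, permutation tests). Their r was -0.66 within females, with female 3 included, 0.25 within males, and 0.68 over the 13 libraries without female 3. SLCO4C1 and ABCC4 had an r of 0.85 over 14 libraries and 0.87 within males (adjusted p = 0.0533, exact permutation test), which fell to 0.41 without male 9 and male 7. In the 6 females SLC22A7 had its highest r with SLC22A6 (0.98) and SLC47A1 (0.96), both with an adjusted p of 0.0222 over 8 pairs, but by rho both were 0.77 and did not pass (adjusted p = 0.137, exact permutation tests).

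Each transporter was also set against all genes whose mean level was not below the median gene (4769 or 4770 candidates, 5324 for SLC22A7), after removing the difference between the sexes. The closest gene to SLC22A6 was SLC7A10 (r = 0.99 over 14 libraries), followed by UPB1 and SLC34A1, the sodium phosphate carrier of the proximal brush border. SLC22A8 was closest to GPX3, a glutathione peroxidase that the proximal tubule secretes into plasma, with ACSM2B and SLC13A3, the basolateral dicarboxylate carrier, behind it (r = 0.98 for each of the 3). SLC22A2 was closest to PDZK1 (r = 0.98), a scaffold of the apical membrane, then GALNT11 and CDH2, and SLC47A1 had LOC101005940 and PDZK1 among its 3 closest genes (r = 0.96 for each). ABCC2 was closest to QDPR, KIAA1191 and ALDH1L1 (r from 0.94 to 0.95). SLCO4C1 was closest to ENY2, CDH6 and PIK3CB (r from 0.86 to 0.88), ABCC4 to LRCH1, EXOC1 and ABI3BP (r from 0.92 to 0.95), and ABCB1 to DCTN3, CLOCK and EIF4G3 (r from 0.85 to 0.93), and these 9 genes include no proximal tubule marker of the list used here. SLC22A7, over 6 females, was closest to SLC3A1 (r = 0.999), LOC101007270 and HAO2. All of these values included female 3, and the closest genes without it were not computed. Without female 3, r with the proximal tubule level over 13 libraries was 0.78 for ABCC4 and 0.77 for ABCB1.

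Other drug carriers leaned the same way. Of 37 further transporters of drugs, urate, carnitine, peptides and nucleosides, 24 were tested, 18 were lower in females (75%, beside 36.1% of all genes) and 1 was higher, with a median difference of -1.16. SLC16A9, a carnitine and creatine carrier, had a median signal of 1.42 in females and 21.8 in males and the largest change of the 6 named here, -3.20 ± 0.43 (SE, adjusted p = 0.000104). SLCO2B1, an organic anion carrier, was lower by -1.80 (adjusted p = 0.000210) and the peptide carrier SLC15A2 by -1.10 (adjusted p = 0.000547). SLC22A18 (-1.73, adjusted p = 0.000669), the phosphate and urate carrier SLC17A1 (-2.27, adjusted p = 0.000838) and the ergothioneine carrier SLC22A4 (-1.47, adjusted p = 0.00178) completed the 6 with the smallest p. SLCO4A1 was the 1 gene of this list higher in females, 1.34 ± 0.38 (SE, adjusted p = 0.0113), and is named because its values were seen. With all 17 libraries 7 of the 24 were lower and 0 higher, beside 13.2% and 0.372% of all genes. With median scaling 10 were lower and 4 higher, beside 14.9% and 14.5%, so the share higher was near that of all genes.

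Regulators and membrane partners of the transporters were a second list, of which 11 of 16 genes were tested, 8 were lower in females (72.7%, beside 36.1% of all genes) and 0 higher, with a median difference of -0.89. Transcription factors that drive the proximal tubule genes were among them: HNF4G (-1.84, adjusted p = 0.000818) and HNF4A (-1.82, adjusted p = 0.00645). Scaffold proteins that anchor carriers at the brush border also fell, SLC9A3R1 by -1.36 (adjusted p = 0.000515) and PDZK1 by -1.5 (adjusted p = 0.00128), as did ATP1B1, the beta subunit of the sodium pump, at -0.89 (adjusted p = 0.00343). The related scaffold SLC9A3R2 was at 0.58 and did not pass (adjusted p = 0.163). With median scaling 5 of the 11 were lower, beside 14.9% of all genes, and with all 17 libraries 1 was, beside 13.2%. Among markers of other cells of the cortex, read beside the 36.1% of all genes called higher in males, 0 of 5 endothelial, 0 of 4 immune, 0 of 5 stromal, 0 of 2 podocyte and 0 of 7 principal cell genes were called, and 2 of 5 thick limb and 1 of 6 intercalated cell genes were lower in females. The straight part of the proximal tubule had 4 of 4 genes lower, the distal convoluted tubule 2 of 4 and blood 2 of 3, with 0 of 3 injury genes, 0 of 2 liver genes and 0 of 1 skeletal muscle gene called. With median scaling, and again with all 17 libraries, 2 of the 4 straight tubule genes were lower, with 0 distal convoluted tubule and 0 blood genes. Without female 3, thick limb had 4 of 5 lower, principal cells 2 of 7 and blood 3 of 3, beside 39.1% of all genes.

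Transcripts of a gene did not all move together. The 8 genes had 20 transcripts in both tables, and a fit over all 15968 transcripts tested called 14 of the 20 lower in females, beside 25% of all transcripts called higher in males and 1.93% higher in females. Not all of the 14 kept their call with all 17 libraries or with median scaling. For SLC47A1, 1 of its 4 transcripts was called, which does not show that the others were equal between the sexes. XM_009189860.3 had a signal of 6.63, 27.8 and 66.6 in females and 40.1, 114 and 180.1 in males (lowest, median, highest), a difference of -2.0 ± 0.40 (SE, adjusted p = 0.00209). With all 17 libraries that difference was -2.65 and was not called (limma, adjusted p = 0.0545). With median scaling it was -1.57 (limma, adjusted p = 0.0148). XM_017950407.2 had medians of 29.7 and 35.8 (-0.57, adjusted p = 0.129), XM_021928825.1 medians of 23.4 and 19.2 (0.02, adjusted p = 0.963) and XM_017950406.2 medians of 3.53 and 6.47 (-0.63, adjusted p = 0.280).

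The share of SLC47A1 signal held by XM_009189860.3 was therefore lower in females. It ranged from 23.3% to 50.9% in females (mean 33.8% ± 10.2, SD, n = 6) and from 40.5% to 72.3% in males (61.0% ± 9.92, SD, n = 8), with 1 male, male 2, below the highest female. The difference of -27.1 percentage points passed an exact permutation test (two-sided, p = 0.000999, adjusted over 5 genes p = 0.0050), and it was -31.1 points with all 17 libraries (adjusted p = 0.00596). With males of series A alone it was -23.8 points (p = 0.0108, adjusted p = 0.0541) and with series B alone -32.6 points (p = 0.0119, adjusted p = 0.0595, all by exact permutation). The 4 models share their ends, and the split of reads among them was made upstream of the deposited values by steps that are not described here, so the shares are estimates.

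**Figure D5:**
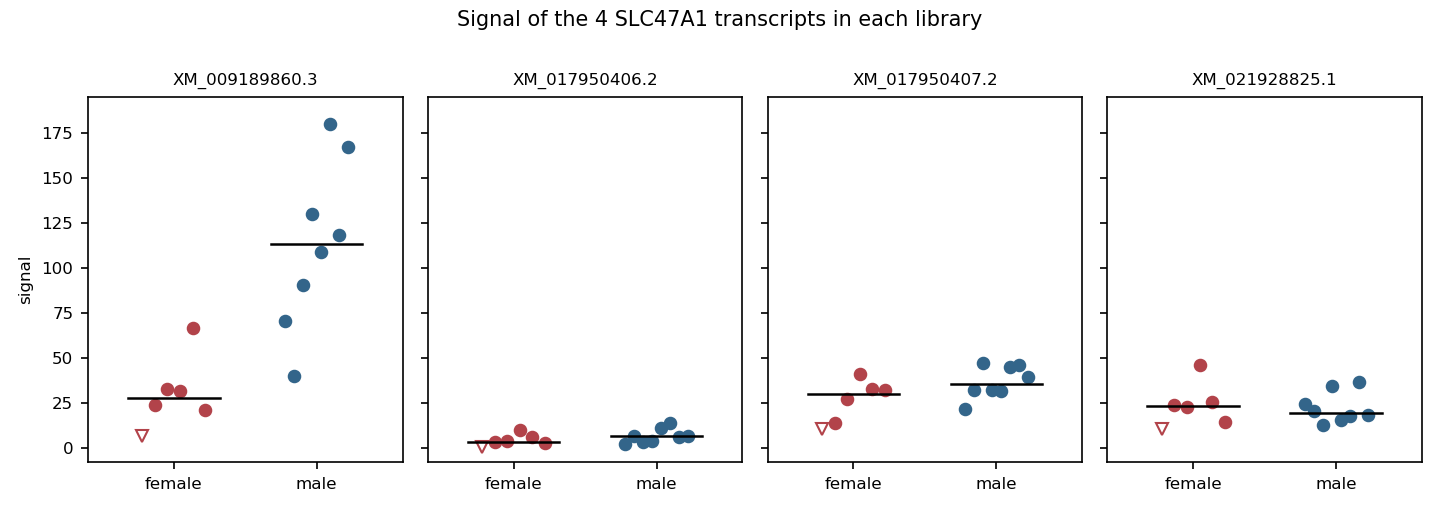
Points give the signal of each SLC47A1 transcript in 6 females (red, female 3 as an open triangle) and 8 males (blue), with black bars at the medians. XM_009189860.3 has medians of 27.8 in females and 114 in males. Female and male medians are 29.7 and 35.8 for XM_017950407.2, 3.53 and 6.47 for XM_017950406.2, and 23.4 and 19.2 for XM_021928825.1. These other 3 transcripts were not called between the sexes.

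ABCB1 had 2 transcripts. Its long transcript XM_021935309.1, from 114947191 to 115055094, was lower in females (-1.21 ± 0.33 SE, adjusted p = 0.0129), while XM_009203505.3, which starts at 114983242, was not called (0.32 ± 0.35 SE, adjusted p = 0.542). The long form held 55.5% ± 31.4 (SD, n = 6) of ABCB1 signal in females and 81.8% ± 10.6 (SD, n = 8) in males (exact permutation p = 0.0403, adjusted p = 0.0504), which missed the threshold. It passed without female 4 (adjusted p = 0.0285) or female 5 (adjusted p = 0.0291), whereas without female 6 the difference went from -26.3 to -17.1 points (adjusted p = 0.129, exact permutation tests). For ABCC4 all 4 transcripts were called lower in females, from -1.58 to -0.96, and the one with the shortest span, XM_009192091.2, held 68.8% in females and 58.1% in males (exact permutation, adjusted p = 0.0358). XM_009192091.2 was not called with all 17 libraries (-0.92, limma, adjusted p = 0.0711) or with median scaling (-0.54, limma, adjusted p = 0.0507). The leading SLC22A8 transcript XM_003909661.4 held 61.3% in females and 68.5% in males (exact permutation, adjusted p = 0.0422), a call lost without any 1 of 8 libraries (female 3, 6, 7 or 8 or male 2, 3, 4 or 9). With the muscle-rich libraries added (7 females and 9 males with SLC22A8 signal) the difference was -5.33 points and did not pass (exact permutation, adjusted p = 0.216). The call on the ABCC4 share was lost without female 6, female 8, male 2 or male 9. ABCC2 signal was 94.0% and 91.5% from 1 transcript (exact permutation p = 0.602).

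The authors' deposited table for females places 13 of 22 transporter transcripts, from 7 genes, in its pink co-expression module, which holds 3.99% of the 26644 transcripts. ABCC4 and ABCB1 are the 2 genes with no transcript in it. Among the 17119 male transcripts analysed, by the authors' deposited table, 8 of 20 transporter transcripts, from 6 genes, are in the blue module, which holds 17.7% of them. Modules were built from the same libraries, so they are no independent measure of the correlations above.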

How the data were processed

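Kidney cortex RNA of 17 baboons was analysed, with 1 library per animal. Values are a signal for every transcript, in separate tables for females and males that also carry a module colour, per the file headers. The submitters' processing notes name Partek. No source used here gives the aligner, counting method, scaling or build. Coordinates come from the tables and use their RefSeq sequence names. Gene models give only the ends of genes and transcripts. Deposited signal has an offset of 1, which was subtracted. Low values were whole multiples of a step for 55.8% to 69.2% of values (tolerance 0.1 of a step). Counts could not be recovered from them, and count models were not used. The male table ended within a line after 17119 complete transcripts (64.3% of the 26644 female transcripts), and the rest was not analysed here. Both tables were treated as 1 scaling because the mean of all 17 libraries had 678 transcripts from 2 to 2.1 and 0 below 2, although 1435 transcripts had a female mean below 2. A difference of scale between the sexes was not tested beyond rescaling to a common median.

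Signal was summed per gene over transcripts in both tables. Tests covered genes that reached a signal of 1 in 6 or more of the 14 libraries (8 of 17 when all were used). They used limma 3.58.1 in R 4.3.3 on log2(signal + 1), modelled a mean-variance trend, and called genes under 0.05 after Benjamini-Hochberg adjustment. Fold changes on this scale understate the change of low genes. Ratios, shares and correlations within a sex used exact permutation tests, and correlations over 13 or more libraries used 100000 resamples (Python 3.11.15, scipy 1.17.1). All p-values are two-sided. In simulated data for the comparison of the sexes over 9539 genes, 200 of them changed, 73% of changes of log2 1 and 98% of log2 2 were recovered, and 9 unchanged genes were called. The simulated noise was independent for each gene, with no effect shared within a library and no library apart like female 3. These rates therefore do not give the error of the calls on the real data. Depth is known only as relative steps, and limits given by 3 steps cover counting error only. Values are not divided by length, so ratios and sums over genes were read between libraries, not between genes.

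Members and gene lists were chosen with earlier results of these data known. Named genes were all members, at most 6 called genes of the list of other drug transporters and of the list of regulators by smallest p, and the 3 genes most like each member (Pearson r after centring within sex). SLCO4A1 and the carriers named for female 3 were chosen after their values were seen. Values of a few genes that this rule names are not reported here. Marker lists covered proximal, straight proximal and distal convoluted tubule, thick limb, principal and intercalated cells, podocytes, endothelium, immune cells, blood, stroma, skeletal muscle, liver and injury. Transcript shares and the fit over transcripts were added after the data were seen. Alternatives were other scalings, pseudocounts, filters, covariates and sets of libraries.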

Additional observations from a re-analysis of the deposited data

Results flagged for a closer look

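In 46 sets of 4 to 10 values, 13 had a library farther from its nearest neighbour than Dixon's critical value allows, where chance gives about 5% of sets. Some sets put back the muscle-rich libraries, which had been set aside because they stood apart. The values of male 6 given below all come from such sets, so the 13 cannot be read against that 5%. The sets share libraries and are not independent. On the log2(signal + 1) scale, female 3 was apart from the other females for SLC22A6 (0.48, next 5.99), SLC22A7 (1.36, next 4.48) and the proximal tubule level (3.07, next 5.75). Female 3 was also apart in the log2 ratio of SLC22A6 to ABCC2 (-0.98, next 3.47) and of SLC22A6 to ABCC4 (-5.04, next 0.66).

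Male 1 was apart from the other 7 males for SLC22A8 (5.60, next 7.6) and for the log2 ratio of SLC22A6 to SLC22A8 (1.62, next 0.60). Its proximal tubule level was the lowest of the 8 males, 7.01.

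The muscle-rich male 6 was apart among all 9 males for 6 genes: SLC22A6 (1.12, next 7.22), SLC22A8 (2.08, next 5.60), SLC22A2 (4.41, next 7.15), SLCO4C1 (2.08, next 5.12), SLC47A1 (4.0, next 6.65) and ABCC4 (4.04, next 5.54).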

How the results depend on the processing

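No paired analysis was possible because each animal gave 1 library and the labels give the sexes no shared numbers. The 7 transporters called were 3 with all 17 libraries, 0 with age as a covariate, 2 with the proximal tubule covariate, 0 with that covariate without female 3 and 0 with all 17 libraries and median scaling. The cause was not tested. Leaving out 1 library gave 7 to 8. The 3652 genes called were 1279 with all 17 libraries, 387 with all 17 and median scaling, 2227 with a minimum of 10 (fewer genes tested), 1 with age, 1945 with series A alone (3037 with series B alone), 2248 with the covariate and 4 with it without female 3. Leaving out 1 library gave 3096 to 4026. The 19 correlated pairs were 9 within females and 2 within males (fewer samples), 16 with median scaling, and 17 to 28 without 1 library. With the covariate the difference turned to 1.07 (SLC22A6), 0.11 (SLC22A8) and 0.0266 (SLC47A1), and without female 3 as well to 0.34, 0.13 and 0.36, with 0.15 for ABCC2 and 0.0736 for ABCB1. The SLC22A6 to ABCC4 ratio ranged from -1.61 to 0.0037 without 1 library, the latter without female 3, their r turned to -0.66 within females, and the ABCC2 transcript share to -3.54 points with all 17 libraries. Levels per kilobase were not run, since no lengths were at hand. Of 605 alternatives over 43 results, 510 were labelled the same. For a tested result this meant the same direction and call, including results that were never called. For a count it meant staying within a fixed factor of the main count, and for a level moving by less than its SD. In female 3, SLC22A6, SLC22A8 and SLC22A7 amounted to 7, 4 and 28 steps of the scale. In the muscle-rich libraries the values of these genes amounted to 0 to 11 steps, so they are coarse there.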

Other observations

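Among the other drug carriers, some were higher in female 3 than in the other 5 females and some far lower. They are named after their values were seen. ABCC3, a basolateral anion pump, was at 320% of their median, ABCC10 at 235% and SLCO4A1 at 445%, whereas the urate exchanger SLC22A12 was at 6.43%, SLC22A11 at 7.34%, SLC13A3 at 1.78% and SLC47A2, the second MATE carrier of the brush border, at 24.7%. Over the 24 carriers of that list the median was 42.6%. Of the 11 regulators, HNF4A was the lowest, at 11.3%. These are values of 1 library with no replicate, and they carry no test.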
